A study of Homo sapiens with 6 samples.

Results

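The ZNF genes encode zinc finger proteins, most of them transcription factors, and 243 of the 17939 genes in the expression table of LY2 cells are described here. Members were chosen by their symbol, ZNF followed by digits or by digits and 1 letter, and by a mean level of 3 FPKM or more over 6 libraries. FPKM counts fragments per length of transcript and per size of library. Of 505 such symbols in the table, 142 had a mean under 1 FPKM, 6 of these at 0 in every library, and 120 a mean of 1 to 3 FPKM. The level that chose the members was the mean over both groups, so that the level is a description and not a result. The members closest above the minimum were ZNF8 at 3.01, ZNF587 at 3.06 and ZNF180 at 3.06 FPKM, and the genes closest below it were ZNF2 at 2.98, ZNF133 at 2.96 and ZNF329 at 2.95 FPKM. For 8 members, 2 of them called higher, the siCtrl mean was under 3 FPKM and the siCDK12 mean above it, whereas no member stood the other way round (0 genes).

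LY2 is a breast cancer line derived from MCF-7 that expresses the estrogen receptor and resists endocrine therapy. It was transfected for 48 hours with siRNA pools at 30 nmol/L, directed at CDK12 (siCDK12) or at no human transcript (siCtrl), and 3 libraries were made per group. Both groups were deprived of serum before transfection, both were kept without 4-hydroxytamoxifen, and the silencing of 1 line by 1 siRNA pool is the whole of the model. The comparison asked which transcripts depend on CDK12, a kinase of the RNA polymerase II tail.

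ZNF proteins bind DNA through tandem C2H2 fingers, in which a pair of cysteines and a pair of histidines hold a zinc ion. Many carry a KRAB domain, which recruits TRIM28 (KAP1) and through it the histone methyltransferase SETDB1 and HP1 proteins, and such KRAB-ZNF proteins are best known for silencing transposable elements. Others carry a SCAN domain, through which these proteins pair with each other. Many ZNF genes arose by tandem duplication and stand in clusters on chromosome 19.

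The finger is the feature that nearly all members shared. In the coding sequence of the GENCODE v44 canonical transcript, found for 242 members, 237 held at least 1 classical C2H2 finger (C, 2 to 4 residues, C, 12 residues, H, 3 to 5 residues, H), with a median of 9 and up to 36. The 5 members without a match were ZNF185, ZNF330, ZNF503, ZNF703 and ZNF839. In 1683 finger units of 84 bases from 195 members, the 21 bases of the linker were compared with the 12 codons between the cysteine and histidine pairs. These codons hold the residues that read DNA. The linker was the more alike of the 2, with the commonest base found in a median of 81.4% of units per position, against 55.2% over these codons. The rest of the unit was not summarised. The linker coded threonine, glycine, glutamate, lysine and proline in 48.8% of units. Units of 4 members are shown because their genes responded in different directions, ZNF841 and ZNF165 being higher with siCDK12 and ZNF480 and ZNF28 lower. Each is read 5′ to 3′ on the coding strand from GRCh38, with the linker in capitals, from chr19:52066760-52066843 (minus strand), chr19:52321947-52322030 (plus), chr19:52800777-52800860 (minus) and chr6:28089300-28089383 (plus).
ZNF841: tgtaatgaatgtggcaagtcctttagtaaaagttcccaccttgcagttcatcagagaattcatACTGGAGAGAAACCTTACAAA
ZNF480: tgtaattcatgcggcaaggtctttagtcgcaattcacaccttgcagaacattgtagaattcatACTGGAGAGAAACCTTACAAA
ZNF28: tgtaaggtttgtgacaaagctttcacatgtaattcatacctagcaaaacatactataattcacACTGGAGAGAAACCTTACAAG
ZNF165: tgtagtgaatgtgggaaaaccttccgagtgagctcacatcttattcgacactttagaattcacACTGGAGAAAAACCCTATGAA
The units of ZNF841 and ZNF480 were identical at 69 of 84 bases and at all 21 linker bases, and those of ZNF28 and ZNF480 at 62 of 84. The first of these pairs was the closest of all pairs compared, with 1 unit standing for each gene. The ZNF841 and ZNF165 units, whose genes both rose, were identical at 56 of 84 bases. Whether likeness of units goes with direction was not tested.

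The labels were checked on the targeted gene, CDK12, which stood at 2.23, 2.83 and 2.44 FPKM with siCDK12 and at 11.2, 10.7 and 10.3 FPKM with siCtrl (log2 fold change -2.06, SE 0.0852, limma adjusted p = 3.17e-07). All 8 luminal markers had a mean above 1 FPKM, from 45.7 to 1970 FPKM. Of 3 basal markers, 1 passed 1 FPKM, at a mean of 1.84 FPKM, and KRT14 was at 0. The summed basal markers were at most 1.76 FPKM with siCDK12 and at least 1.99 FPKM with siCtrl. Of 3 blood markers, 0 passed 1 FPKM, the highest mean being 0.703 FPKM, and the T cell marker CD3E was at 0. The summed luminal markers ranged from 5260 to 5370 FPKM with siCDK12 and from 4830 to 4870 with siCtrl. This sum weighs the most abundant markers most and does not give the direction of each. The study reports ESR1, which is on the luminal list, as downregulated by CDK12 knockdown. COL1A1 alone of 3 fibroblast markers in the table passed 1 FPKM, and the summed fibroblast markers ranged from 10.6 to 11.1 FPKM with siCDK12 and from 7.74 to 8.55 with siCtrl. The part of these shifts in the values below was not tested, and in bulk RNA fewer cells of a type and less RNA per cell cannot be told apart.

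More ZNF genes rose than fell. Of 243 members, 53 were higher with siCDK12 and 9 were lower, and 181 did not pass the test (limma on log2(FPKM + 0.1), Benjamini-Hochberg adjusted p under 0.05 over 11533 tested genes). The higher members made up 21.8% of the ZNF genes, where 16.1% of all tested genes were higher, and the lower members made up 3.70%, where 12.3% of all tested genes were lower. Among the 9847 tested genes averaging 3 FPKM or more these background shares were 16.7% and 12.7%. The median log2 fold change over the members was 0.09, with quartiles of 0.00 and 0.19 and a range from -0.44 to 0.61, against medians of 0.03 over all tested genes and 0.03 over those at 3 FPKM or more. It was above 0 for 187 members (77.0%), against 58.5% of all tested genes. In 90 members every siCDK12 library lay above every siCtrl library, and in 15 every one lay below, against 25.4% and 17.8% of all tested genes. All 62 called members were among these, and 43 further members did not overlap between groups without passing the test.

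The shifts were small. Of all members, 3 (ZNF789, ZNF165 and ZNF738) moved by at least 0.5 on the log2 scale. Replicate libraries of a group differed by a median coefficient of variation of 4.98% with siCDK12 and 4.97% with siCtrl over the members. The median member stood, relative to its own mean over the 6 libraries on the log2 scale, at 0.02, 0.06 and 0.06 in the siCDK12 libraries and at -0.04, -0.03 and -0.07 in the siCtrl libraries. No siCtrl library reached the lowest siCDK12 library. The summed members took 0.622%, 0.644% and 0.634% of all FPKM with siCDK12 and 0.607%, 0.615% and 0.589% with siCtrl.

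The count depended on the scaling and on single libraries, while rises outnumbered falls under every alternative run. With median-ratio scaling 43 members were higher (17.7%, where 11.9% of all tested genes were higher) and 10 lower (4.12%, against 14.5%). With quantile normalization 41 were higher (16.9%, against 13.5%) and 11 lower (4.53%, against 13.8%). Over all tested genes, 56.7% of calls were higher in the fit described here, 45.1% with median-ratio scaling and 49.4% with quantile normalization. Without siCDK12 replicate 3 the members higher fell to 33 (13.6%, where 10.3% of all tested genes were higher) and without siCDK12 replicate 2 to 35 (14.4%, against 11.9%). In all, 26 members were higher and 5 were lower in each of 16 settings, the fit described here and every alternative except the filter at 5 FPKM. The same count over all tested genes is not given, so that these 2 numbers have no background beside them.

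**Figure D1:**
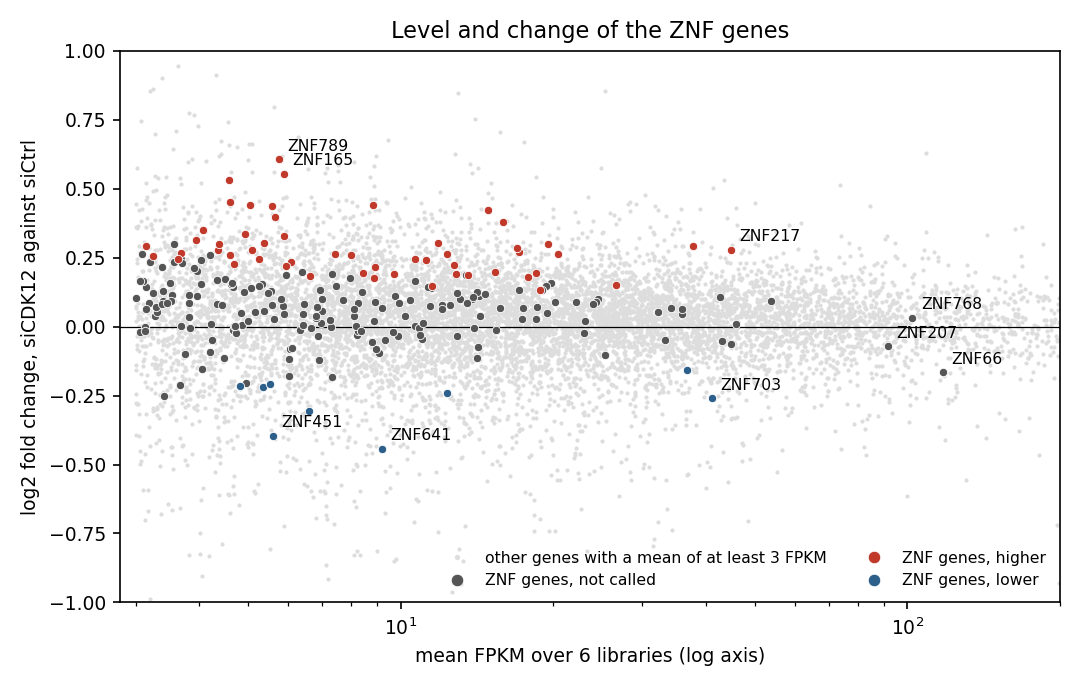
Mean level over 6 libraries (FPKM, log axis) against the log2 fold change of siCDK12 against siCtrl, with the 243 ZNF genes as large points coloured by call and other genes averaging 3 FPKM or more in light grey, of which those outside the plotted range are not shown. The 53 higher and 9 lower ZNF genes lie at all levels up to 44.9 FPKM (ZNF217), and the genes near 100 FPKM (ZNF66, ZNF768 and ZNF207) were not called.

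The largest rise was that of ZNF789, a KRAB-ZNF gene on chromosome 7 (chr7:99472890-99487605, GRCh38). Its end overlaps the span of ZNF394 (chr7:99486519-99500281, mean 18.5 FPKM), which was also called higher. With strandedness not stated, reads from the overlap cannot be assigned, and the 2 rises are not independent. ZNF789 stood at 6.51, 6.86 and 7.52 FPKM with siCDK12 and at 4.52, 4.82 and 4.26 FPKM with siCtrl. The groups did not overlap, and the lowest siCDK12 library lay well above the highest siCtrl library. The mean was 6.96 ± 0.513 FPKM against 4.53 ± 0.280 FPKM (SD, n = 3 each; log2 fold change 0.61, SE 0.0740, limma adjusted p = 0.000210). The exact two-sided permutation test over the libraries gave p = 0.1 here and for every gene whose groups did not overlap, the smallest value that 3 against 3 libraries allow.

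ZNF165, a SCAN gene on chromosome 6 known as a cancer-testis antigen, reached 6.96, 6.78 and 7.34 FPKM with siCDK12 against 5.12, 4.30 and 4.87 FPKM with siCtrl. Every siCDK12 library was higher, at a log2 fold change of 0.55 (SE 0.0744, limma adjusted p = 0.000397). ZNF738, in the chromosome 19 cluster that also holds ZNF66 and ZNF85, stood at 5.86, 5.07 and 5.42 FPKM against 3.65, 3.81 and 3.74 FPKM. Its siCtrl libraries were nearly level, and it rose by a log2 fold change of 0.53 (SE 0.0727, limma adjusted p = 0.000439).

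ZNF274 combines a KRAB and a SCAN match and is known for bringing SETDB1 to the 3′ ends of other ZNF genes. Its level was 9.72, 10.53 and 10.32 FPKM with siCDK12 and 7.30, 7.09 and 8.09 FPKM with siCtrl, without overlap. The gene rose by a log2 fold change of 0.44 (SE 0.0629, limma adjusted p = 0.000576). ZNF174, a SCAN gene on chromosome 16, stood at 18.4, 16.15 and 19.49 FPKM against 13.11, 14.08 and 14.2 FPKM, a log2 fold change of 0.38 (SE 0.0667, limma adjusted p = 0.00200). Here siCDK12 replicate 2 was the lowest of its group and still above every siCtrl library.

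The other 5 of the 10 largest rises covered fingers in number from 1 to 20. ZNF428, with a single finger match, rose from 12.7 ± 0.522 to 17.1 ± 1.47 FPKM, at a log2 fold change of 0.42 (limma adjusted p = 0.000803). ZNF23, with 16 fingers, rose from 4.72 ± 0.146 to 6.44 ± 0.515 FPKM, at a log2 fold change of 0.44 (limma adjusted p = 0.00128). ZNF841, with 20 fingers, rose from 3.88 ± 0.462 to 5.34 ± 0.607 FPKM, at a log2 fold change of 0.45 (limma adjusted p = 0.00877). Its siCDK12 replicate 3, at 4.64 FPKM, was nearest to the siCtrl libraries, the highest of which stood at 4.29 FPKM. ZNF613, with 12 fingers, rose from 4.25 ± 0.243 to 5.83 ± 0.626 FPKM, at a log2 fold change of 0.44 (limma adjusted p = 0.00304). ZNF354B, with 13 fingers, rose from 4.89 ± 0.592 to 6.44 ± 0.0473 FPKM, at a log2 fold change of 0.40 (limma adjusted p = 0.00465), as did its near copy ZNF354A on chromosome 5 (log2 fold change 0.30, limma adjusted p = 0.000316). These 2 genes share 5.34% and 5.95% of their 100-base windows, and reads from those windows cannot be told apart, so that their values are not independent.

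Falls were few. The largest was that of ZNF641, a gene on chromosome 12 (chr12:48334587-48351246, GRCh38) with 5 fingers. It stood at 7.44, 7.91 and 7.99 FPKM with siCDK12 and at 11.06, 10.59 and 10.17 FPKM with siCtrl. Every siCDK12 library was lower than every siCtrl library, at a log2 fold change of -0.44 (SE 0.0556, limma adjusted p = 0.000255). ZNF451, a SUMO ligase as well as a zinc finger protein, stood at 4.64, 4.98 and 4.84 FPKM against 6.48, 6.74 and 5.91 FPKM. It fell by 0.40 on the log2 scale (SE 0.0686, limma adjusted p = 0.00183), again without overlap.

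ZNF28 and ZNF480, KRAB-ZNF genes from the same stretch of chromosome 19, were both lower. ZNF28 stood at 5.73, 6.22 and 5.68 FPKM against 7.61, 7.29 and 6.97 FPKM (log2 fold change -0.31, limma adjusted p = 0.00483). Its span lies within that of ZNF600 (chr19:52764164-52833645), which was not called (log2 fold change 0.20, limma adjusted p = 0.123). With strandedness not stated, reads from the span of ZNF28 cannot be assigned. It also shares 1.93% of its windows with other genes, ZNF468 foremost. ZNF480 stood at 10.82, 12.07 and 11.04 FPKM against 13.63, 13.49 and 12.99 FPKM (log2 fold change -0.24, limma adjusted p = 0.00757). In ZNF28 and ZNF480, siCDK12 replicate 2 was the highest of its group and below every siCtrl library. The 4 smaller falls beside ZNF703 were ZNF747 (-0.22, limma adjusted p = 0.0207), ZNF561 (-0.21, limma adjusted p = 0.0332), ZNF827 (-0.21, limma adjusted p = 0.0353) and ZNF580 (-0.16, limma adjusted p = 0.0450), each in log2 fold change. ZNF827 is known for bringing the NuRD complex to telomeres. ZNF580 lies within the span of ZNF581 (chr19:55635003-55645623) and shares 5.11% of its windows with it. The highest siCDK12 library of ZNF580, at 35.58 FPKM, nearly met its lowest siCtrl library, at 35.65 FPKM. The span of ZNF747 (chr16:30530367-30534858) overlaps that of ZNF768 (mean 102 FPKM). With strandedness not stated, reads from these overlaps cannot be assigned. These 4 calls were lost under some alternatives, 8 of 16 for ZNF580, 7 of 15 for ZNF561, 6 of 16 for ZNF827 and 2 of 16 for ZNF747.

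**Figure D2:**
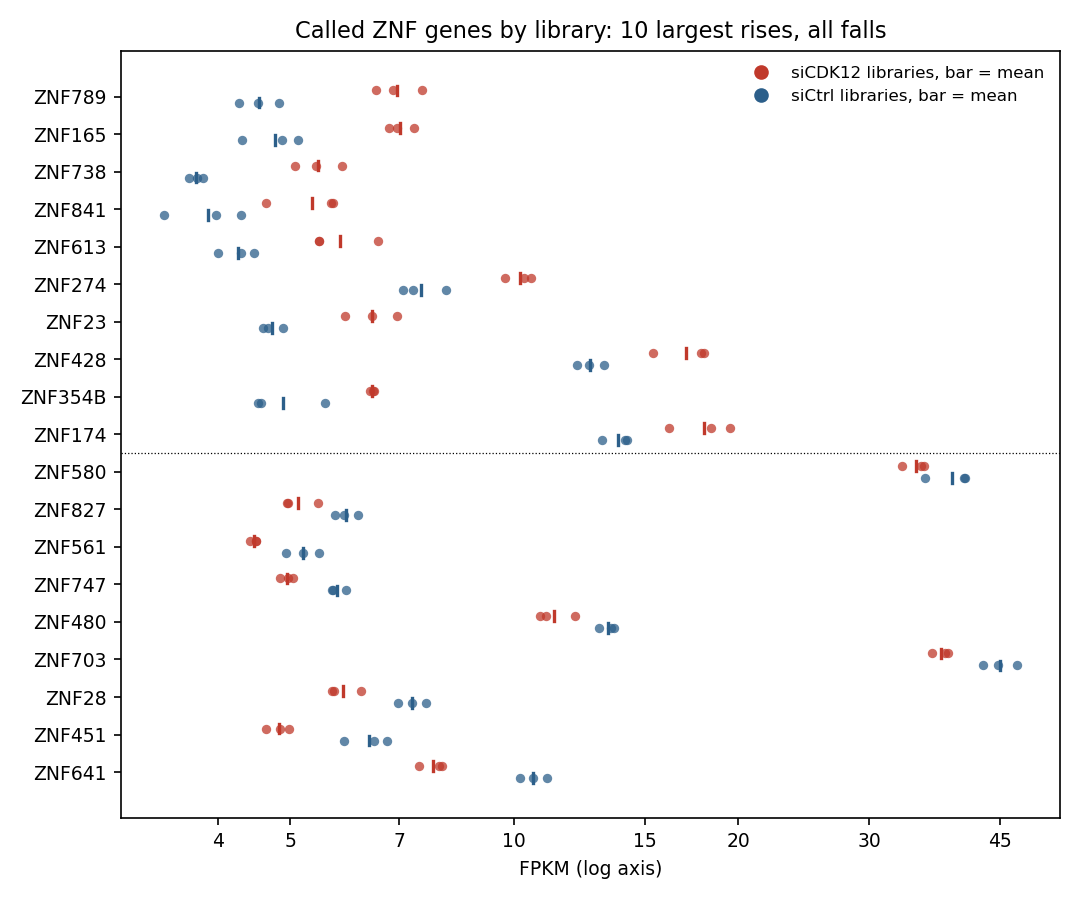
FPKM (log axis) of the 10 largest rises and of all 9 falls among the called ZNF genes, with 1 point per library, siCDK12 in red and siCtrl in blue, and a bar at each group mean. The groups do not overlap in any of the 19 genes, and ZNF580 shows the narrowest gap, 35.58 against 35.65 FPKM.

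The role list held ZNF217, ZNF703 and ZNF350, which are known from breast cancer and were called. They are given here because of their calls. Others of the list were not called, among them ZNF652 (log2 fold change -0.11, SE 0.0705, limma adjusted p = 0.248). ZNF217, a transcriptional regulator at 20q13 that is often amplified in breast tumours, was higher with siCDK12 at 48.7, 50.07 and 48.77 FPKM against 41.2, 41.68 and 38.75 FPKM with siCtrl. Its lowest siCDK12 library lay well above its highest siCtrl library, at a log2 fold change of 0.28 (SE 0.0393, limma adjusted p = 0.000531). ZNF703, a gene of the NET family that is amplified in luminal B tumours and represses transcription, stood at 38.26, 36.45 and 37.9 FPKM against 42.68, 47.45 and 44.77 FPKM. It fell by 0.26 on the log2 scale (SE 0.0447, limma adjusted p = 0.00177), without overlap. ZNF350 (ZBRK1), a KRAB-ZNF protein that binds BRCA1, stood at 4.67, 5.01 and 4.06 FPKM against 3.85, 3.39 and 3.45 FPKM. It rose by a log2 fold change of 0.35 (SE 0.0905, limma adjusted p = 0.0155), its siCDK12 replicate 3 being close to the siCtrl libraries, and the call was lost under 2 of 15 alternatives.

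A list of 34 ZNF genes with a known role held 30 members, of which 4 were higher (ZNF165, ZNF217, ZNF350 and ZNF644), 1 was lower (ZNF703) and 25 did not pass the test. The shares of 13.3% higher and 3.33% lower compare with 16.1% and 12.3% of all tested genes, so that the rises of the list did not exceed the background. ZNF644, a partner of the histone methyltransferases G9a and GLP, rose from 8.22 ± 0.0737 to 9.58 ± 0.128 FPKM, at a log2 fold change of 0.22 (limma adjusted p = 0.00767). The log2 fold changes of the 25 others lay between -0.18 and 0.17. They include ZNF143, an activator that binds at many promoters (5.68, 5.30 and 6.35 FPKM with siCDK12 and 6.37, 6.07 and 6.35 FPKM with siCtrl), whose groups overlapped. ZNF598, the ubiquitin ligase that marks collided ribosomes, stood at 42.3 ± 1.29 against 43.9 ± 1.24 FPKM (limma adjusted p = 0.338). ZNF207 (BuGZ), a spindle assembly factor, stood at 89.3 ± 1.84 against 93.7 ± 1.77 FPKM, below in every library but not called (limma adjusted p = 0.145).

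The members of the list that silence named transposons were not called. ZNF91, which represses SVA elements, had a log2 fold change of 0.10 (SE 0.0650, limma adjusted p = 0.279), and ZNF93, which represses LINE-1 elements, one of 0.16 (SE 0.0822, limma adjusted p = 0.176). ZNF410, known for its action on the chromatin remodeller gene CHD4, had one of 0.05 (SE 0.0372, limma adjusted p = 0.376). ZNF687 and ZNF592, which act together in a complex with ZMYND8, had values of 0.06 (SE 0.0383, limma adjusted p = 0.239) and 0.14 (SE 0.0568, limma adjusted p = 0.0914). The zinc finger gene of a DBC1 complex, ZNF326, stood within 0.01 of 0 on the log2 scale. Values of these genes that miss the threshold do not show that they were equal between groups.

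**Figure D3:**
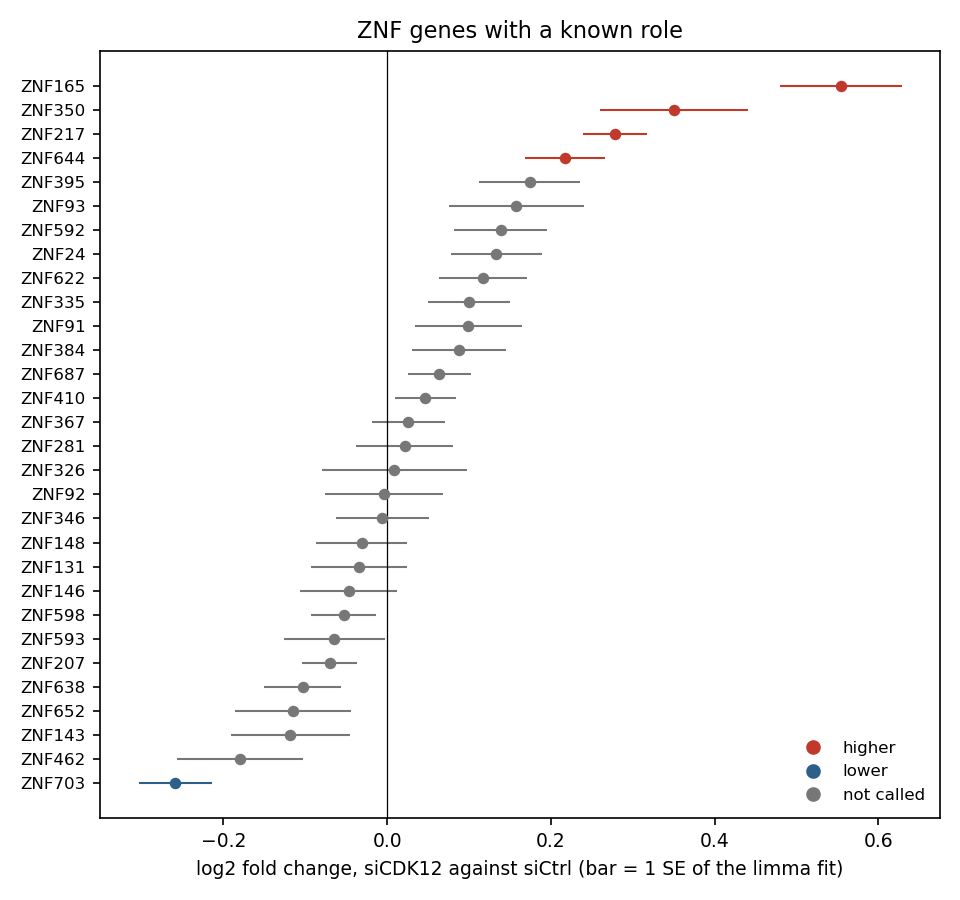
Log2 fold change of siCDK12 against siCtrl for the 30 ZNF genes of the role list, with bars of 1 SE of the limma fit and colours for the call. ZNF165, ZNF350, ZNF217 and ZNF644 were higher, ZNF703 was lower, and the 25 others lay between -0.18 and 0.17.

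The 5 most abundant ZNF genes, ZNF207 among them, were not called. ZNF66, a KRAB-ZNF gene of the chromosome 19 cluster, led all members at 99.14, 124.24 and 109.58 FPKM with siCDK12 and 132.68, 129.79 and 110.68 FPKM with siCtrl. The groups overlapped, and the log2 fold change of -0.17 (SE 0.0813) did not pass the test (limma adjusted p = 0.152). ZNF768 stood at 104 ± 3.91 against 101 ± 2.52 FPKM, ZNF664 at 55.7 ± 0.471 against 52.2 ± 1.65 FPKM and ZNF511 at 46.2 ± 1.46 against 45.8 ± 1.57 FPKM. The median member had a mean of 6.97 FPKM. The 81 members of lowest level (up to 5.26 FPKM) had a median log2 fold change of 0.12 with 15 higher (18.5%) and 1 lower (1.23%). The 81 of highest level (from 10.7 FPKM) had one of 0.09 with 21 higher (25.9%) and 3 lower (3.70%). Over all tested genes 16.1% were higher and 12.3% lower.

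Of the 120 ZNF genes with a mean of 1 to 3 FPKM, 15 were higher and 0 lower by limma (35 and 1 at an unadjusted p under 0.05). The share higher was 12.5%, below the 16.1% of all tested genes, and the median log2 fold change was 0.19. The 49 members of the ZBTB, ZSCAN, ZKSCAN and ZFP families at 3 FPKM or more, which also carry C2H2 fingers, had a median of 0.06 with 6 higher (12.2%) and 3 lower (6.12%), both below the shares of 16.1% and 12.3% over all tested genes. Among them ZBTB7A, a repressor of the POK family, was higher (log2 fold change 0.20, limma adjusted p = 0.00293), and ZSCAN16 (-0.39, limma adjusted p = 0.000347) and ZBTB22 (-0.34, limma adjusted p = 0.00206) were lower. Whether these families differ from the ZNF genes was not tested.

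Members were also grouped by the domain that stands beside their fingers. A KRAB A pattern (EW, 8 to 12 residues, Y or H, any residue, D, N or E, VM, any residue, E or D) matched 85 members. Of these, 19 were higher (22.4%) and 4 lower (4.71%), at a median log2 fold change of 0.12. A wider pattern, chosen after the sequences had been seen, matched 120, of which 27 were higher (22.5%) and 4 lower (3.33%), at a median of 0.11. The 122 members without a match by either had 25 higher (20.5%) and 5 lower (4.10%) and a median of 0.07. These shares were close to the 21.8% and 3.70% of all members, where 16.1% and 12.3% of all tested genes were called. The wider pattern added 35 members, so that a letter pattern can miss the domain. Members without a match are not shown to lack KRAB. The KRAB count of 19 of 85 dropped to 12 with quantile normalization, to 10 without siCDK12 replicate 2, to 11 without siCDK12 replicate 3 and to 12 without siCtrl replicate 2 or 3. Over all tested genes the share higher was 13.5% with quantile normalization, 11.9% and 10.3% without siCDK12 replicate 2 or 3, and 11.9% and 13.9% without siCtrl replicate 2 or 3. Without siCDK12 replicate 2 the 10 of 85 did not exceed the 11.9% of all tested genes.

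A SCAN pattern, written after the names of called members had been seen, matched 15 members. Of these, 7 were higher (ZNF165, ZNF274, ZNF174, ZNF213, ZNF394, ZNF446 and ZNF263) and 0 lower by limma (10 and 0 at an unadjusted p under 0.05). The shares were 46.7% higher and 0% lower, against 16.1% and 12.3% of all tested genes and 21.8% and 3.70% of all members. The SCAN members had a median log2 fold change of 0.16, above 0 in 14 of 15. ZNF213, on chromosome 16, stood at 23.37, 21.01 and 22.57 FPKM against 18.11, 18.27 and 19.36 FPKM (log2 fold change 0.26, limma adjusted p = 0.00321). ZNF263, a repressor on the same chromosome, stood at 18.71, 18.51 and 19.53 FPKM against 16.11, 17.23 and 16.77 FPKM (log2 fold change 0.18, limma adjusted p = 0.0141). An exception was ZNF232 at 6.47, 7.07 and 6.30 FPKM against 7.24, 7.13 and 7.21 FPKM, below in every library but not called (log2 fold change -0.12, limma adjusted p = 0.161). Since the pattern followed the called names, the count of SCAN members is a description. SCAN genes under other symbols did not show such a count, in sets of only 9 and 4 genes. Of 9 ZSCAN genes 0 were higher and 1 (11.1%) was lower by limma (1 and 1 at an unadjusted p under 0.05). Of 4 ZKSCAN genes 0 were called in either direction (1 and 0). Between 5 and 8 of the 15 SCAN-matching members were higher under every alternative run.

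**Figure D4:**
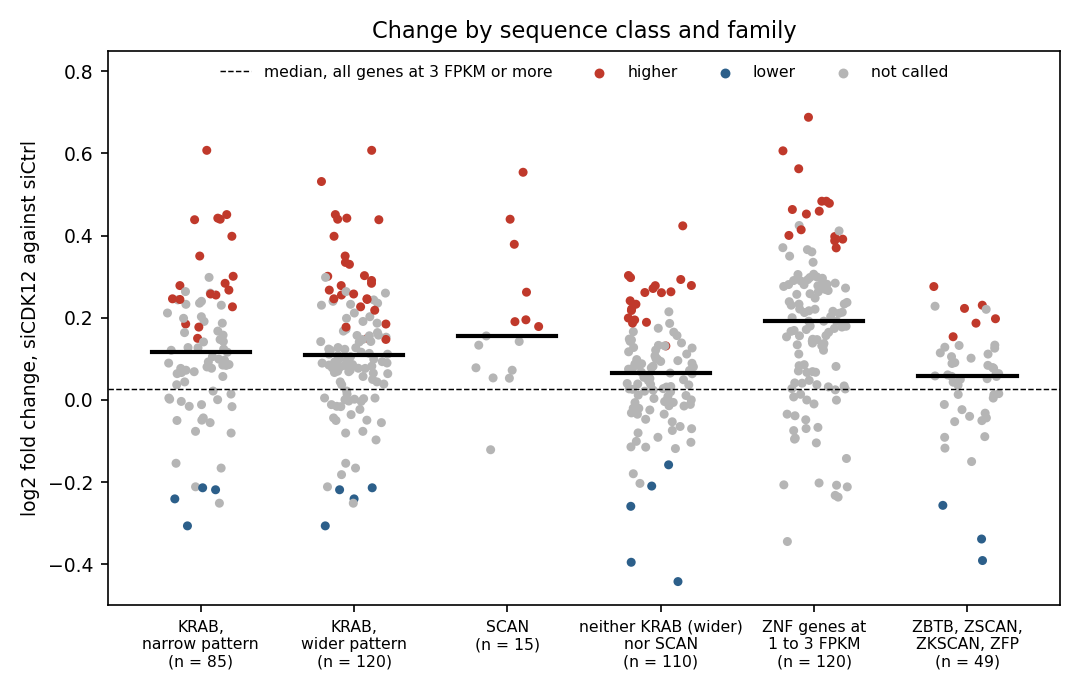
Log2 fold change of siCDK12 against siCtrl for ZNF genes with a KRAB match (85 by the narrow and 120 by the wider pattern), with a SCAN match (15) or with neither (110), for 120 ZNF genes at 1 to 3 FPKM and for 49 genes of other zinc finger families. Points are genes coloured by call, black bars are medians, from 0.06 for the other families to 0.19 for the lower-level ZNF genes, and the dashed line is the median of 0.03 over all tested genes at 3 FPKM or more.

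The number of fingers and the lengths varied little with the change. Across the 242 members with a coding sequence, the Spearman correlation of the log2 fold change was 0.10 with the number of fingers, -0.15 with transcript length and 0.10 with GC content. Across all 243 it was -0.11 with gene span and -0.13 with mean level. All genes at 3 FPKM or more gave -0.01, 0.16, -0.04 and -0.09 for transcript length, GC content, span and level. These are descriptions across genes measured in the same 6 libraries. Members without any 100-base window in common with another gene of the table, 209 in number, had 47 higher (22.5%) and 6 lower (2.87%). All tested genes had 16.1% higher and 12.3% lower. The median log2 fold change of these members was 0.09.

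Chromosome 19 held 94 of the 243 members, and 22 of these were higher (23.4%) and 4 lower (4.26%), at a median log2 fold change of 0.11. The 149 on other chromosomes had 31 higher (20.8%) and 5 lower (3.36%) and a median of 0.08. Both were near the 21.8% and 3.70% of all members, where 16.1% and 12.3% of all tested genes were called. Called neighbours shared 1 direction in some runs and not in others. In the run from ZNF613 to ZNF331 (chr19:51927472-53580269, 18 members, runs being parted by gaps of over 1 Mb), ZNF613, ZNF350, ZNF841 and ZNF816 were higher and ZNF480 and ZNF28 lower, at a median of 0.06. In the run from ZNF253 to ZNF257 (chr19:19865830-22091480), 12 of 13 members had a value above 0 and 2 were called higher, ZNF738 and ZNF43, while ZNF66 was the 1 member below 0. In the run from ZNF576 to ZNF296 (chr19:43596392-45076478), 4 of 8 were higher and 0 lower, among them the neighbours ZNF226 and ZNF227 at log2 fold changes of 0.30 and 0.33. The run from ZNF134 to ZNF446 (chr19:57614242-58489533) had 5 of 14 members higher and 0 lower, with 12 above 0.

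Outside chromosome 19, chromosome 7 held 20 members with 6 higher and 0 lower by limma (7 and 0 at an unadjusted p under 0.05), and chromosome 1 held 13 with 5 higher and 0 lower (5 and 0). These are shares of 30.0% and 38.5% higher, against 16.1% of all tested genes, for chromosomes picked after their values were seen. Chromosome 6 held 7 members with 3 higher (42.9%) and 1 lower (14.3%). Chromosomes 3, 10, 12, 15 and 17 held 6, 8, 9, 6 and 7 members. By limma 0 were higher on each (1, 1, 2, 2 and 0 at an unadjusted p under 0.05), and 1 was lower, on chromosome 12. The 6 members on chromosome 9 had a median of -0.14, 5 of them below 0, with 0 called in either direction (0 above and 2 below at an unadjusted p under 0.05). ZNF510 had the lowest value there, at 2.85, 3.33 and 3.14 FPKM against 4.05, 3.59 and 3.51 FPKM (log2 fold change -0.25, limma adjusted p = 0.0556). Its groups did not overlap, but it was not called.

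**Figure D5:**
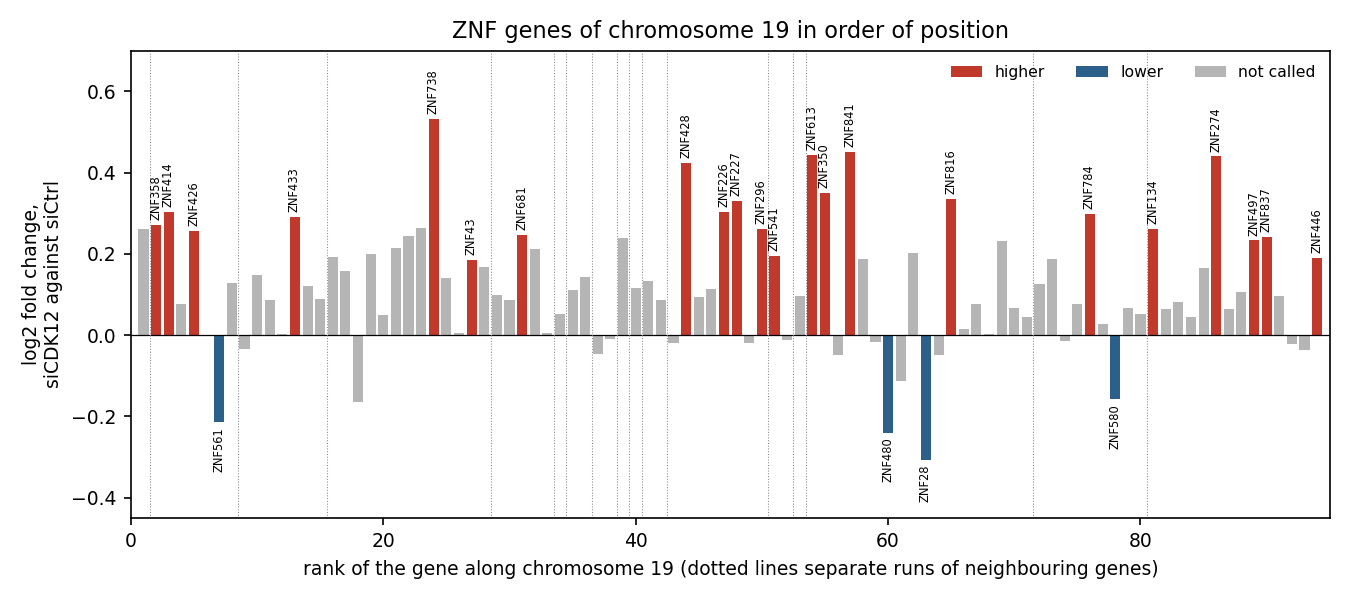
Log2 fold change of siCDK12 against siCtrl for the 94 ZNF genes of chromosome 19 in order of position, with bars coloured by call, called genes named and dotted lines between runs of neighbouring genes. The 22 higher genes lie at ranks 2 to 31 and 44 to 94, with 0 higher between ranks 32 and 43, and ZNF480 and ZNF28, both lower, stand in the same run as ZNF613, ZNF350, ZNF841 and ZNF816, all higher.

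A core motif of the ETS family of transcription factors was found in more promoters of ZNF genes than of other genes, a share that was not tested. RefSeq promoters (GRCh38.p14, from 250 bases before to 50 after the start) were matched for 210 members, and 44.8% of these held CCGGAAG on either strand, against 20.5% of the promoters of all tested genes and 10.7% of all promoters in the table. Among the members higher with siCDK12 the share was 34.8% (16 of 46), among those lower 2 of 5, and among those not called 47.8%. The ZNF143 core ACTACAA was in 8.57% of member promoters and 3.85% of those of all tested genes. The NRF1 core GCGCATG was in 9.05% and 7.96%, with 0 of 46 among the higher members. The YY1 core AAGATGG was in 7.62% and 7.79%, and the Kaiso core TCTCGCG in 3.81% and 6.82%. Each was searched on both strands, and the last 3 bases of the ETS core can also be the first 3 of the YY1 core. The matches are descriptions of these windows.

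Promoters of 2 higher genes and 1 lower gene are printed to show where the ETS core lies, in capitals on whichever strand it was found. They are ZNF274 (chr19:58182811-58183110, plus strand), with 2 matches on the opposite strand, ZNF174 (chr16:3400965-3401264, plus) and ZNF641 (chr12:48350870-48351169, minus), each with 1.
ZNF274: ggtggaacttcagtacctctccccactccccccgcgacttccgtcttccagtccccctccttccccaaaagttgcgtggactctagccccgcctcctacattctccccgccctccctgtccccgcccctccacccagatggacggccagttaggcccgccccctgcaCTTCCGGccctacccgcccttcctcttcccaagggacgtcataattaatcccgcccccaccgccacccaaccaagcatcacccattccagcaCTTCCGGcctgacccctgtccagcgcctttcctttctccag
ZNF174: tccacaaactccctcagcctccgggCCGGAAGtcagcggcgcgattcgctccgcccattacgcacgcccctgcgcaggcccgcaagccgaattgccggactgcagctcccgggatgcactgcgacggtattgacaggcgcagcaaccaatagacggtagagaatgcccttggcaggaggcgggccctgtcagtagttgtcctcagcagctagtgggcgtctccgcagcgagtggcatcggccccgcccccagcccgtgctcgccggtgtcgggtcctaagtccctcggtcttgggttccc
ZNF641: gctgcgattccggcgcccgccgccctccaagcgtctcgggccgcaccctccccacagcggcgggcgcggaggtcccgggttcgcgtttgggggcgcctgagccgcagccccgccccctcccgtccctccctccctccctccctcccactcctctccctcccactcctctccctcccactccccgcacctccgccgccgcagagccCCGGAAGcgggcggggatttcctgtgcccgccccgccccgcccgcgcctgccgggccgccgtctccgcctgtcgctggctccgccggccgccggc
These 3 were picked because they hold the core. Among the other genes of the largest rises and falls whose promoter was read, the core was also in those of ZNF841 and ZNF23, both higher, and of ZNF580, lower. It was in none of those of ZNF789, ZNF613, ZNF428 and ZNF354B, all higher, and of ZNF451, ZNF747 and ZNF561, all lower.

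The genes of the KRAB co-repressor machinery were mostly not called. Of 25 tested, 3 were higher, 3 lower and 19 did not pass the test, with a median log2 fold change of 0.01. The shares of 12% in each direction were near or below the 16.1% and 12.3% of all tested genes. TRIM28, the scaffold that KRAB domains bind, stood at 338 FPKM with siCtrl and had a log2 fold change of 0.01 (SE 0.0322, limma adjusted p = 0.837), and SETDB1 one of 0.05 (SE 0.0453, limma adjusted p = 0.475). MORC2, an ATPase that works with the HUSH silencing complex, fell by 0.15 on the log2 scale (limma adjusted p = 0.0187), and CBX5, which encodes HP1 alpha, by 0.14 (limma adjusted p = 0.0419). SUMO2 (0.11, limma adjusted p = 0.0233), WIZ, a partner of G9a and GLP (0.14, limma adjusted p = 0.0424), and ATF7IP2, a relative of the SETDB1 cofactor ATF7IP (0.26, limma adjusted p = 0.0443), rose in log2 fold change. The 3 rises were lost under 6 of 16, 10 of 16 and 11 of 15 alternatives for SUMO2, WIZ and ATF7IP2, and none of the 3 held with median-ratio scaling. CBX5 lost its call under 9 of 16 alternatives and MORC2 under 3 of 16, among them the fits without siCDK12 replicate 1 or 2 or siCtrl replicate 2, which left 1 of the 3 lower calls.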

How the data were processed

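Total RNA of LY2 cells was sequenced on the BGISEQ-500 platform in 6 libraries, 3 siCDK12 and 3 siCtrl, grouped by their labels. Per the labels and the study's methods, the authors cleaned reads with SOAPnuke and used Bowtie2, RSEM, GRCh38 and, for their own tests on read counts, DESeq2. The deposited values are FPKM, scaled by the authors for the length of the transcript and the size of the library, and read counts were not used here. The study's methods give a nominal number of clean reads per sample and no total per library, so no counting interval was computed.

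The 11533 genes averaging 1 FPKM or more entered a two-sided limma fit (version 3.58.1, R 4.3.3) of log2(FPKM + 0.1), siCDK12 minus siCtrl, whose variances were moderated along a trend. Calls were made at 0.05 after Benjamini-Hochberg adjustment over these genes. The pseudocount makes fold changes of low genes smaller. The steps were tested on simulated data. The study's methods describe the libraries as replicates, and p-values measure the spread between them only. Named genes were the 10 largest rises and falls among called members, the 5 most abundant, a list of members with known roles, the members and ZNF genes nearest the level minimum, called co-repressor genes and CDK12, not all of them printed, and 1 called co-repressor gene is not reported here. ZBTB7A, ZBTB22, ZSCAN16, ZNF213, ZNF263, ZNF232, ZNF354A and ZNF510 were added after their values were seen, as were counts by chromosome and run. The members and lists were chosen with earlier results of these data known.

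Fingers and domains were read from coding sequences of GENCODE v44 canonical transcripts, positions from RefSeq (GRCh38.p14). No sequence from chromosome 8 is shown. Alternatives were pseudocounts of 1 and 0.01, no filter or 5 FPKM, 3 rescalings, 2 variance estimates, a replicate block and the omission of single libraries. Plots used matplotlib 3.10.9 (Python 3.11.15).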

Additional observations from a re-analysis of the deposited data

How the results depend on the processing

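Leaving out 1 library in turn gave 33 to 49 ZNF genes higher and 6 to 10 lower, 10 to 21 KRAB-matching members higher, 0 to 2 co-repressor genes higher and 1 to 3 lower, and a median log2 fold change of the ZNF genes from 0.077 to 0.103. Over all tested genes, 10.3% to 13.9% were higher and 9.09% to 10.4% lower in these fits. Median-ratio scaling moved that median to 0.064, and left 0 co-repressor genes higher (against 3). The KRAB-matching members higher numbered 12 with no filter on low values, 12 with the filter at 5 FPKM (where 45 of 85 were tested) and 12 with quantile normalization, and the co-repressor genes higher numbered 1 with no filter, 1 with quantile normalization, 1 without a variance trend and 1 with the replicate block. Over all tested genes, the share higher was 8.54% with no filter, 17.5% with the filter at 5 FPKM and 13.5% with quantile normalization. With members from 1 FPKM on, 68 were higher and 9 lower. Replicate numbers did not pair the libraries: deviations of same-numbered libraries correlated at -0.003, 0.020 and -0.028. The replicate block called 43 ZNF genes higher (17.7%) and 7 lower (2.88%), where 13.4% and 10.5% of all tested genes were called. Genes near 0 changed sign without passing the test: ZNF281 stood at -0.003 and ZNF326 at -0.015 and ZNF511 at -0.014 in log2 fold change with median-ratio scaling, and ZNF326 at -0.030 and ZNF511 at -0.004 with quantile normalization. Leaving out 1 library gave ranges across 0 for ZNF131 (-0.086 to 0.005), ZNF146 (-0.113 to 0.009), ZNF148 (-0.061 to 0.005), ZNF180 (-0.046 to 0.010), ZNF2 (-0.016 to 0.171), ZNF281 (-0.013 to 0.062), ZNF326 (-0.082 to 0.081), ZNF346 (-0.062 to 0.023), ZNF367 (-0.007 to 0.044), ZNF511 (-0.018 to 0.033), ZNF593 (-0.117 to 0.008) and ZNF92 (-0.061 to 0.043). The causes of these moves were not tested. Of the named genes, 5 that were not called passed under an alternative (ZNF24, ZNF395, ZNF462, ZNF638 and ZNF66). FPKM and a nominal depth give no counts per library, so that differences of single low genes could not be set against counting error, and unstated strandedness leaves overlapping genes unresolved.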
